A study of Mus musculus with 2 samples.

Results

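The R-spondins (Rspo1, Rspo2, Rspo3 and Rspo4) are secreted proteins that amplify Wnt signalling, and Lgr4, Lgr5 and Lgr6 are the receptors that bind them. The genes were taken by symbol from the deposited feature list, where all 7 were found among 32286 features, and their raw UMI counts were summed per marker-defined cell class and library. The mutant library, titled dermal SmoM2YFP mutant, comes from embryos that combined Axin2CreER with a Rosa-lox-STOP-lox-SmoM2YFP allele. Axin2CreER is a tamoxifen-inducible recombinase under control of the Wnt target Axin2. After recombination the SmoM2YFP allele yields a constantly active Smoothened and so switches on Hedgehog signalling. Recombination can reach cells that express Axin2 when tamoxifen acts, and their descendants keep the recombined allele. The mutant library therefore mixes recombined and other cells. For the control library, only the SmoM2YFP allele appears in the title. Both hold dorsolateral flank skin at E13.5, with 2 to 3 littermates pooled into 1 library per group, so no difference below has a replicate check, there is no test between the groups, and all intervals cover counting error only. The genotype entries of the libraries contradict their titles, and groups follow the titles. In dermal cells the Hedgehog target Ptch1 had 245 CPM (UMIs per 1000000) in the library titled mutant and 5.59 CPM in the library titled control, and the eYFP feature had 28.8 and 0.41 CPM, which goes with the titles. In epidermal cells the eYFP feature had only 0.538 CPM in the mutant and 0.346 CPM in the control library.

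In cells that respond to Wnt, the membrane ubiquitin ligases ZNRF3 and RNF43 remove Frizzled receptors from the surface. An R-spondin bound to an LGR receptor draws these ligases away, so that more Frizzled and LRP co-receptor stays at the surface and the same amount of Wnt gives a stronger response. Wnt activity in the embryonic skin is needed in both the dermis and the epidermis before the hair placodes form, and LGR5 and LGR6 are known as markers of hair follicle stem cells after birth.

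The mutant library held 11909 barcodes with 73809828 UMIs, and the control library held 13566 barcodes with 109629368 UMIs. After the filters of at least 1000 genes and at most 10% mitochondrial UMIs, and without called doublets, there were 8514 mutant cells with a median of 6662 UMIs and 11527 control cells with a median of 7442 UMIs. They fell into 22 clusters and 10 classes, namely dermal mesenchymal-like, epidermal-like, muscle-like, macrophage-like, mast and other blood-like, endothelial-like, mural-like, glial-like, melanoblast-like and erythroid-like cells, written below without the suffix. The dermal class held 5162 mutant and 8758 control cells and detected 12 of its 12 markers at 10 CPM or more in each library, and the epidermal class held 1390 mutant and 553 control cells with 13 of 13. The libraries fill largely separate dermal clusters: clusters 4, 7 and 12 held 29.0%, 25.1% and 16.1% of mutant dermal cells and at most 0.0685% of control dermal cells, while clusters 1, 3 and 8 held 23.0%, 20.9% and 13.2% of control dermal cells and at most 2.05% of mutant ones. The 7 genes and their partner genes were left out of the genes used for clustering. The libraries share 48 barcode sequences, of which 37 were kept as cells in both. Summed erythroid markers were 986 CPM in mutant and 201 CPM in control dermal cells, early response genes 741 and 465 CPM, and G2M genes 1385 and 1268 CPM.

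The dermis was the main source of R-spondin transcripts in both libraries. It held 90.3% of the Rspo1 UMIs of mutant cells and 97.7% of those of control cells, and 88.4% and 97.8% of the Rspo3 UMIs. Of the UMIs of all genes, it held 32401436 of 60730262 in mutant cells and 63376377 of 96716897 in control cells, a smaller part in the mutant library. Rspo2 UMIs were found in dermal cells alone in both libraries, and Rspo4 UMIs in dermal and muscle cells apart from 1 UMI in control mural cells. Among the receptors, Lgr4 was spread over every class, Lgr5 was found in dermal and muscle cells, and Lgr6 in dermal and epidermal cells, apart from at most 2 UMIs in any other class and some UMIs in erythroid barcodes. Of the 7 genes, 3 reached 10 CPM in dermal cells of either library, and at a threshold of 1.5-fold Rspo1 was lower in the mutant library and Rspo3 and Lgr4 were within it. Over all 8157 features measured at that level in dermal cells, 4.40% were higher and 4.84% lower by the same rule, and the median log2 ratio was 0.01. A summed level does not tell fewer expressing cells from less RNA per cell, so shares of cells with a UMI are given beside the main results.

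**Figure D1:**
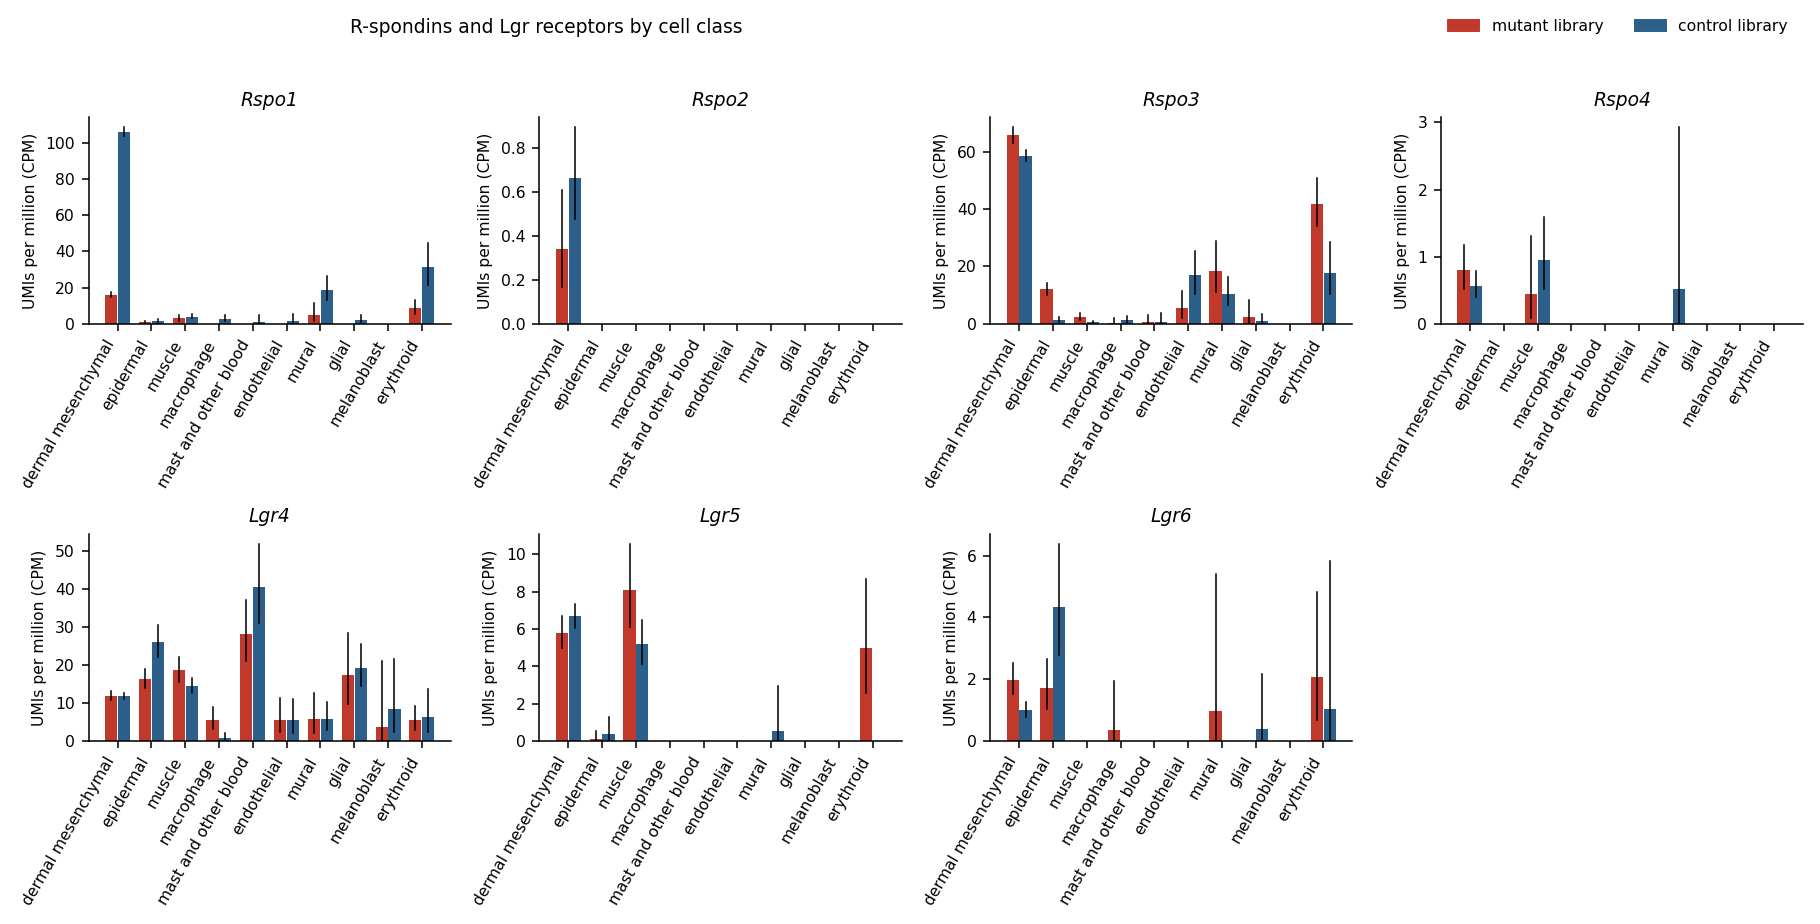
UMIs per 1000000 (y axis, CPM, a scale of its own in each panel) of each R-spondin and Lgr gene in the 10 cell classes (x axis), with the mutant library in red and the control library in blue. Vertical lines are exact 95% Poisson intervals for counting error, drawn where at least 1 UMI was found. Rspo1 stands at 16.1 CPM in mutant and 106 CPM in control dermal cells, Rspo3 is close in both, and Lgr4 is found in all classes.

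Rspo1, an activating ligand for all 3 LGR receptors, was the R-spondin that differed most between the libraries in dermal cells. Dermal cells held 522 Rspo1 UMIs at 16.1 CPM (95% interval 14.8 to 17.6) in the mutant library and 6717 UMIs at 106 CPM (104 to 109) in the control library. The ratio of mutant over control was 0.152 (0.139 to 0.166). A UMI was found in 8.04% of mutant and 41.1% of control dermal cells, and after each cell was thinned to 3000 UMIs in 4.43% (3.86 to 5.05) and 23.6% (22.7 to 24.5), with 350 mutant and 286 control cells left out as too shallow. Macrophages, which should lack the gene, gave 0 of 324 mutant cells, which allows a share of up to 0.926%, and 3.23% of 341 control cells, at median depths of 8659 and 10973 UMIs. Both the level and the share of dermal cells with the transcript were thus lower in the mutant library.

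Rspo1 lies on mouse chromosome 4 at chr4:124986430-125009099 on the plus strand (GRCm38, GENCODE M21), is protein coding, and is overlapped on the other strand by Gm12930. The 250 bases before its start, chr4:124986180-124986429, are shown beside those of Lgr4, chr2:109917397-109917646, since these genes had the largest and the smallest departure of the ratio from 1 in dermal cells; both are read on the plus strand from RefSeq (GRCm38.p6), with CG steps in capitals.
Rspo1: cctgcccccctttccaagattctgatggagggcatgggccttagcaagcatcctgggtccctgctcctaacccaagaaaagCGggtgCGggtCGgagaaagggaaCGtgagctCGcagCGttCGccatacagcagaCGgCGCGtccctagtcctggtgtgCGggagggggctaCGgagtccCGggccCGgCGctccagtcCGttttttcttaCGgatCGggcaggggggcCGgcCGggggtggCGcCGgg
Lgr4: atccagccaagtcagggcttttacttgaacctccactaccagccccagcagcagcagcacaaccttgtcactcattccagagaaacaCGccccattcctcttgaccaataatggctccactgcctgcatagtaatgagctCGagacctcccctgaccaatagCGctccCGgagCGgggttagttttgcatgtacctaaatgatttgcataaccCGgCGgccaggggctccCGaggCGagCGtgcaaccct
The Rspo1 stretch is 66.8% G or C with 22 CG steps and the Lgr4 stretch 55.6% with 10, where the median of 32851 promoters in the table is 52.4% and 6. With 50 more bases past the start included, neither holds the GLI motif GACCACCCA or the TCF/LEF motif ATCAAAG on either strand, which 0.253% and 3.73% of all promoters in the table hold. A window of this length says nothing about more distant elements or about binding.

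Rspo1 was lower in the mutant library at every level of Hedgehog target UMIs that both libraries could fill, and its mutant level was lowest where these targets were highest. In mutant dermal cells with 0, 1, 2 and 3 or more UMIs of Ptch1, Gli1 and Hhip among 3000, Rspo1 stood at 26.1, 10.5, 8.44 and 6.81 CPM in 2166, 1029, 761 and 856 cells. The control library had 8169 cells with none, at 106 CPM (103 to 109), and 285 with 1, at 106 CPM (93.3 to 121), so Rspo1 stood at a close level with and without 1 target UMI. Mutant cells without a target UMI still stood 4.06-fold (3.64 to 4.53) below control cells without one, and a target UMI can be missed at this depth.

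Dermal clusters gave the same direction. In the 6 clusters with at least 50 cells of each library, Rspo1 was lower in the mutant library in 6, with the interval below 1 in 5. Cluster 3, led by Nrgn, Calb1 and Crabp1, had 98.99 CPM in mutant and 134 CPM in control cells (ratio 0.737, 0.545 to 0.976), but it held only 106 mutant cells. Cluster 5 had 28.9 CPM in mutant and 106 CPM in control cells (0.272, 0.206 to 0.354), and cluster 11 had 17.1 and 26.2 CPM (0.653, 0.379 to 1.07). Clusters 4 and 7, led by Hhip and Ptch1 among others and almost wholly mutant, had 8.74 and 9.45 CPM, the lowest Rspo1 levels of any dermal cluster in the plot by cluster. Over the clusters with at least 100 cells of each library, pooled, the ratio was 0.313, a smaller difference than over the whole class. The libraries spread differently over these clusters, whose own ratios were 0.4865, 0.737, 0.272 and 0.653 in clusters 2, 3, 5 and 11.

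**Figure D2:**
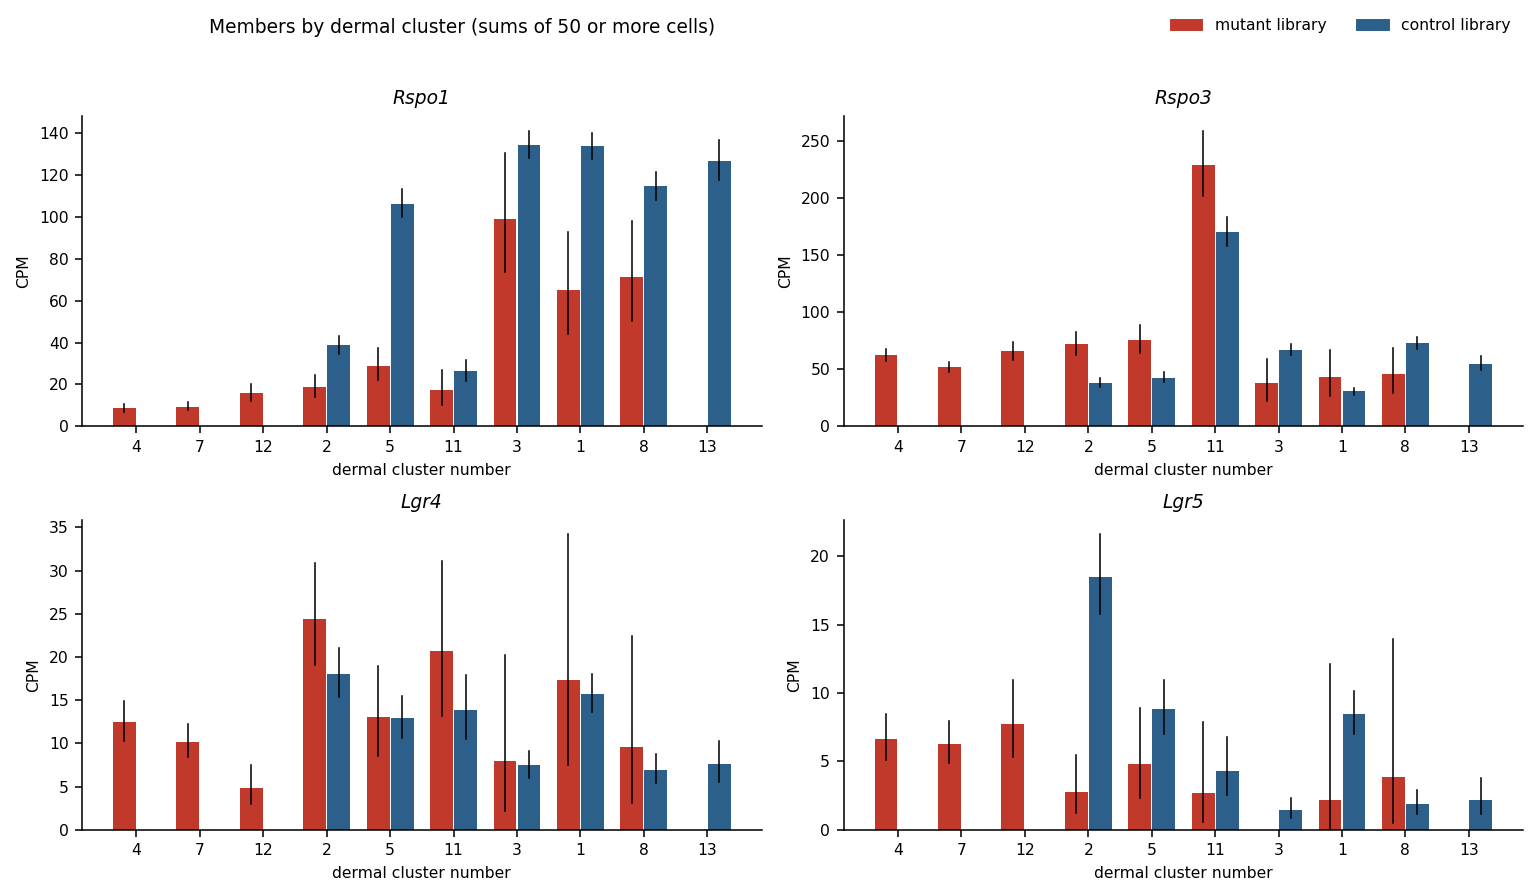
CPM (y axis) of Rspo1, Rspo3, Lgr4 and Lgr5 by dermal cluster number (x axis) for the mutant library in red and the control library in blue, with exact 95% Poisson intervals; sums of fewer than 50 cells are not drawn, and no interval is drawn at 0 UMIs. Rspo1 is at 8.74 and 9.45 CPM in the mutant clusters 4 and 7, Rspo3 peaks in cluster 11 at 229 CPM in mutant and 171 CPM in control cells, and Lgr5 peaks in control cells of cluster 2 at 18.5 CPM.

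Rspo1 was also compared over Crabp1, a gene of the upper dermis, by whose UMIs the dermal cells of both libraries were split into 4 ranges after thinning, cut at the quartiles of all dermal cells. From the lowest to the highest Crabp1 range, Rspo1 stood at 11.2, 12.2, 18.2 and 32.9 CPM in mutant cells and at 46.5, 109, 142 and 127 CPM in control cells. The mutant level was lower in each range, and even the highest of the 4 mutant levels lay below the lowest control level. Cells with a Lef1 UMI had 13.52 CPM in the mutant library and 113 CPM in the control library, and cells without one 16.3 and 105 CPM.

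Outside the dermis Rspo1 was scarce. Mural cells had 5 UMIs at 4.86 CPM in the mutant library and 36 UMIs at 18.9 CPM in the control library (0.257, 0.0787 to 0.657), beside summed dermal markers of 4572 and 5296 CPM in these cells. Erythroid barcodes had 8.71 and 31.4 CPM beside 4669 and 5047 CPM of dermal markers, and the part of dermal RNA in either value was not tested. Epidermal cells had 10 UMIs at 0.897 CPM in the mutant library and 9 UMIs at 1.56 CPM in the control library, a difference that was not detectable at this depth (0.576, 0.210 to 1.60). Melanoblasts had 0 UMIs in both libraries.

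Rspo3, a ligand known for its roles in vessels and in the dermal cells of the hair follicle, lies at chr10:29452416-29535867 on the minus strand and is overlapped on the other strand by Gm48159. Its dermal level was close in both libraries, with 2129 UMIs at 65.7 CPM (63.0 to 68.6) in mutant cells and 3717 UMIs at 58.7 CPM (56.8 to 60.6) in control cells. The ratio was 1.12 (1.06 to 1.18), within 1.5-fold. After thinning, 13.9% of mutant and 13.8% of control dermal cells had a UMI. The dermal ratio of Rspo3 to Rspo1 UMIs was therefore 4.08 (3.70 to 4.50) in the mutant library and 0.553 (0.532 to 0.576) in the control library.

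The close totals cover opposite differences within the dermis. From the lowest to the highest Crabp1 range, Rspo3 stood at 94.8, 58.8, 42.5 and 49.2 CPM in mutant cells and at 66.7, 41.9, 39.3 and 75.4 CPM in control cells, so it was higher in the mutant library where Crabp1 was low and lower where Crabp1 was highest. Of the 6 clusters with 50 cells of each library, Rspo3 was higher in the mutant library in 4, with the interval above 1 in 3, and lower in 2, with the interval below 1 in 2. Cluster 2 had 72.2 CPM in mutant and 38.2 CPM in control cells (1.89, 1.58 to 2.26), and cluster 5 had 75.7 and 42.7 CPM (1.77, 1.46 to 2.14). Cluster 3 had 37.6 CPM in mutant and 67.3 CPM in control cells (0.559, 0.335 to 0.879), and cluster 8 had 46.2 and 73.2 CPM (0.632, 0.402 to 0.947). Both clusters held few mutant cells, 106 and 78, or 2.05% and 1.51% of mutant dermal cells, with 19 and 24 Rspo3 UMIs. Clusters 3 and 8 are led by the same genes, Nrgn, Calb1 and Crabp1, and whether these differences differ was not tested.

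The highest Rspo3 level was in cluster 11, led by Sfrp2, Ptn and Ebf2 and with Rspo3 itself among its leading 10 genes, with 229 CPM (202 to 259) in mutant and 171 CPM (158 to 184) in control cells. In mutant cells Rspo3 did not fall with Hedgehog targets as Rspo1 did: it stood at 67.7, 58.3, 59.2 and 69.8 CPM with 0, 1, 2 and 3 or more target UMIs. The 532 mutant cells with UMIs of 3 or more of 10 genes of dermal condensates, the cell clusters below hair placodes, had 95.4 CPM of Rspo3 (84.7 to 107) and 9.61 CPM of Rspo1 (6.43 to 13.8). Mutant cells with 1 to 2 of these genes had 49.6 and 15.8 CPM and those with none had 69.1 and 17.2 CPM, so Rspo3 had no steady course over the 3 ranges. Control cells with 1 to 2 of these genes had 73.9 CPM of Rspo3 and 89.3 CPM of Rspo1 and those with none had 56.5 and 108 CPM, and the control library had 1 cell with 3 or more.

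**Figure D3:**
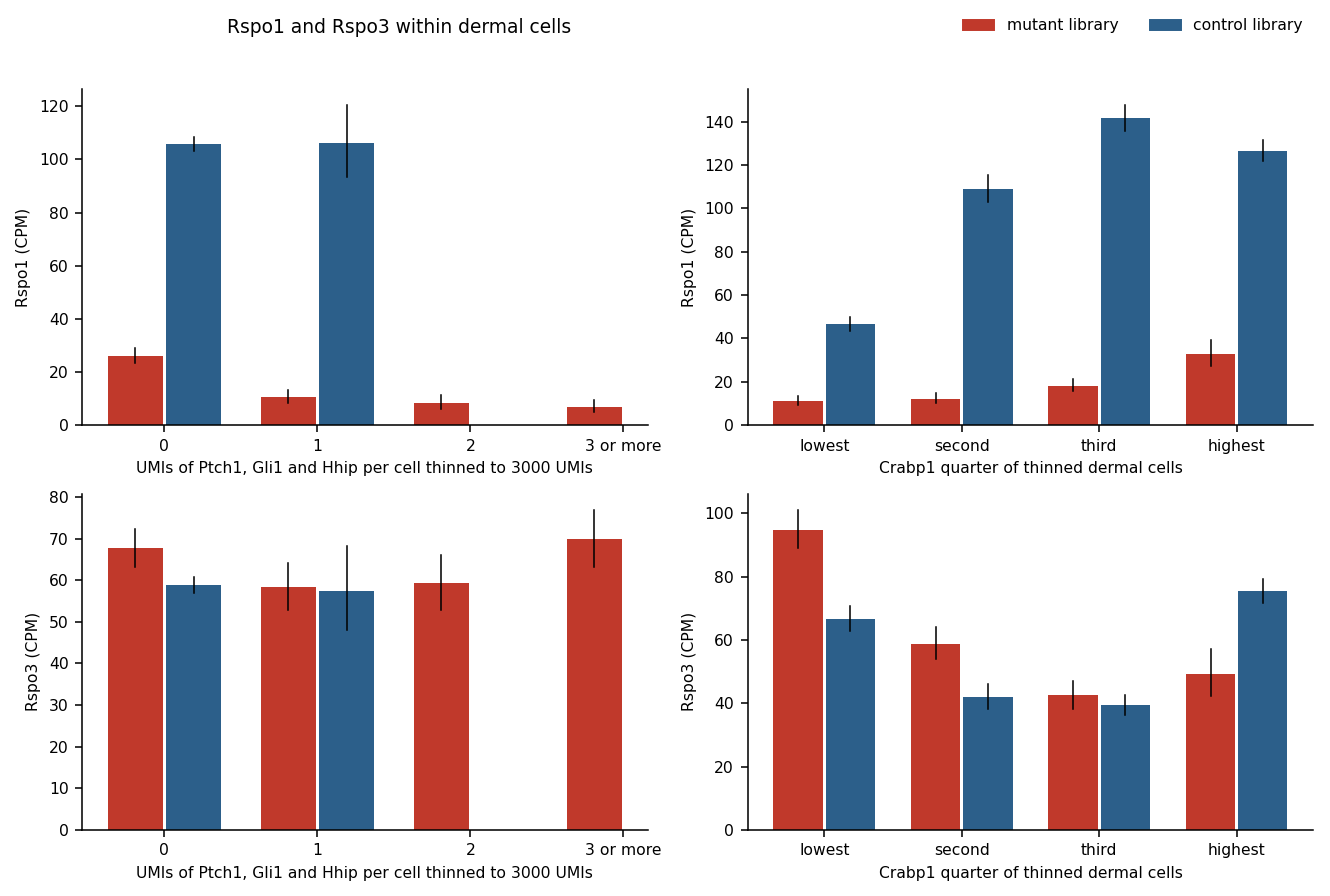
CPM (y axis) of Rspo1 in the upper panels and Rspo3 in the lower panels within dermal cells, over UMIs of 3 Hedgehog targets in the left panels and Crabp1 ranges in the right panels (x axes), with the mutant library in red, the control library in blue and exact 95% Poisson intervals. Ranges with fewer than 50 cells are not drawn. Rspo1 falls to 6.81 CPM in mutant cells with 3 or more target UMIs, where Rspo3 is at 69.8 CPM.

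Rspo3 also appeared in mutant epidermal cells. They held 134 UMIs in 106 of 1390 cells at 12.02 CPM (10.1 to 14.2), and control epidermal cells held 7 UMIs in 5 of 553 cells at 1.21 CPM (0.487 to 2.50). The ratio was 9.92 (4.69 to 25.2), and after thinning 2.71% of mutant and 0.366% of control epidermal cells had a UMI. In macrophages 0.309% of mutant and 0.880% of control cells had one.

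RNA of other cell types was measured beside this result. Summed dermal markers stood at 317 CPM in mutant and 439 CPM in control epidermal cells, and summed erythroid markers at 860 and 141 CPM. The part of dermal or erythroid RNA in the epidermal Rspo3 result was not tested. The Rspo3 to Rspo1 ratio was 13.4 (7.06 to 28.6) in mutant epidermal cells, beside 4.08 in mutant dermal cells. Mutant epidermal cells with an Rspo3 UMI had 328 CPM of dermal markers and 5.07 CPM of Col1a1, and those without one had 316 and 8.95 CPM. Krt14 stood at 1428 CPM in the cells with an Rspo3 UMI and at 1449 CPM in those without.

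The size of the epidermal difference depended on which cells were taken. In cells with no UMI of Col1a1, Col1a2, Col3a1, Dcn, Lum or Pdgfra, mutant Rspo3 stood at 14 UMIs and 7.73 CPM in 263 cells, and 49 control cells gave 0 UMIs, which allows up to 7.60 CPM, so the libraries could not be told apart there. With called doublets kept the ratio was 2.44, and with each cell classed by its own markers it was 3.0. The mutant epidermis had 0 UMIs of Dkk4, a placode gene, which allows up to 0.269 CPM, and the control epidermis had 64.9 CPM. Without the control cells that had a Dkk4 UMI the ratio was 8.34.

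In endothelial cells the Rspo3 ratio was below 1. Endothelial cells had 7 Rspo3 UMIs at 5.47 CPM in the mutant library and 22 UMIs at 16.9 CPM in the control library (0.324, 0.117 to 0.786), beside dermal markers of 96.2 and 296 CPM, whose part in this was not tested. Mural cells, which wrap the vessels, had 18.5 CPM in mutant and 10.5 CPM in control cells (1.76, 0.887 to 3.47), a difference within counting error. Erythroid barcodes had 41.9 and 17.8 CPM. Muscle cells had 15 UMIs in 5 mutant cells and 8 UMIs in 6 control cells.

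Rspo2 and Rspo4 were close to the limit of detection. Rspo2, at chr15:43020794-43170826 on the minus strand, had 11 UMIs at 0.340 CPM in mutant and 42 UMIs at 0.663 CPM in control dermal cells (0.512, 0.238 to 1.01). Of these, 3 mutant and 17 control UMIs lay in cluster 11, at 2.71 and 4.06 CPM, the highest level of Rspo2 among the dermal clusters as for Rspo3. Rspo4, at chr2:151842927-151874668 on the plus strand and overlapped by its antisense gene Rspo4os, had 26 UMIs at 0.802 CPM in mutant and 36 UMIs at 0.568 CPM in control dermal cells (1.41, 0.819 to 2.41). Muscle cells had 3 Rspo4 UMIs at 0.450 CPM in the mutant library and 14 UMIs at 0.945 CPM in the control library (0.476, 0.0877 to 1.71). Neither dermal difference exceeded counting error, and both genes had 0 UMIs in epidermal cells, which allows up to 0.269 CPM in the mutant and 0.519 CPM in the control library.

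Lgr4, the most widely expressed of the receptors, lies at chr2:109917647-110014257 on the plus strand. Its dermal levels were close, with 387 UMIs at 11.9 CPM (10.8 to 13.2) in the mutant library and 748 UMIs at 11.8 CPM (10.97 to 12.68) in the control library, a ratio of 1.01 with an interval of 0.893 to 1.15. In epidermal cells it had 182 UMIs at 16.3 CPM (14.0 to 18.9) in the mutant library and 151 UMIs at 26.1 CPM (22.1 to 30.6) in the control library. That ratio of 0.625 (0.501 to 0.781) was past 1.5-fold. The epidermal clusters gave 16.7 and 16.1 CPM in mutant cells of clusters 9 and 10 against 24.8 and 27.2 CPM in control cells of the same clusters.

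Epidermal subsets kept that order, though not always beyond counting error. Cells with a Krt1 or Krt10 UMI, keratins of the suprabasal layers, had 18.2 CPM of Lgr4 in the mutant library and 28.2 CPM in the control library. Their ratio of 0.646 (0.388 to 1.09), from 38 and 29 UMIs, was within counting error. Cells with neither these nor Dkk4 had 15.8 and 25.1 CPM (0.627, 0.485 to 0.814), from 142 and 107 UMIs. These subsets were set after thinning, where a Dkk4 UMI can be missed, and the 46 control cells with a Dkk4 UMI there had 31.0 CPM. With all UMIs used, the Lgr4 ratio in cells without a Dkk4 UMI was 0.661, from 182 mutant and 120 control UMIs. That is close to the 1.5-fold threshold. In epidermal cells 2 of the 7 genes reached 10 CPM, of which Rspo3 was higher and Lgr4 lower in the mutant library, where 4.16% of 7309 features were higher and 2.70% lower.

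The order of Lgr4 levels over the classes was led by mast and other blood cells, with 28.3 CPM (21.0 to 37.3) in mutant and 40.5 CPM (31.1 to 52.0) in control cells. Nearly the whole class, 164 of 168 mutant and 110 of 113 control cells, had 5 or more UMIs of Cpa3, a mast cell protease. Muscle followed in the mutant library at 18.6 CPM and epidermis in the control library at 26.1 CPM, and the intervals of mast, muscle and glial cells, like those of muscle, glial and epidermal cells, overlap in the mutant library. Muscle cells had 18.6 CPM in mutant and 14.5 CPM in control cells (1.29, 1.02 to 1.61), and glial cells 17.3 and 19.4 CPM (0.893, 0.466 to 1.62). Macrophages had 16 Lgr4 UMIs at 5.54 CPM in the mutant library and 3 UMIs at 0.749 CPM in the control library (7.40, 2.12 to 39.6). A UMI was thus found in 4.94% (2.85 to 7.90) of mutant macrophages, against 6.86% (6.18 to 7.58) of mutant dermal cells at a lower median depth. The 4.94% in mutant macrophages is close to the dermal share, and the 0.880% in control macrophages is below the 7.78% of control dermal cells.

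Within the mutant dermis Lgr4 was low in cells with 3 or more of the 10 condensate genes, at 3.31 CPM (1.59 to 6.09). Mutant cells with 1 to 2 of these genes had 11.8 CPM (9.92 to 14.0) and those with none had 13 CPM (11.3 to 14.8), and control cells with 1 to 2 and with none had 12.2 and 11.6 CPM. Cluster 12, led by Gal, Foxd1 and Cdkn1a and wholly mutant, had 4.85 CPM (2.96 to 7.49). Over the Crabp1 ranges, lowest first, Lgr4 stood at 15.1, 14.4, 6.89 and 7.19 CPM in mutant cells and at 15.8, 16.2, 9.87 and 7.44 CPM in control cells. In both libraries the lower 2 ranges had the higher levels, and the mutant level in the range below the highest was 0.698 (0.510 to 0.944) of the control level. In each of the 6 shared clusters the mutant level was the higher one, but the interval excluded 1 in 1, cluster 2, with 24.4 CPM in mutant and 18.1 CPM in control cells (1.35, 1.01 to 1.80). Over the clusters with at least 100 cells of each library the ratio was 1.53, past the threshold that the whole class does not reach.

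Lgr5, a Wnt target itself and known as a stem cell marker in the adult follicle and gut, lies at chr10:115450311-115587780 on the minus strand, overlapped on the other strand by A930009A15Rik. Its UMIs came mainly from dermal and muscle cells. Mutant barcodes of erythroid cluster 19 had 12 UMIs at 6.20 CPM (3.20 to 10.8) and control ones had 0, and the part of dermal RNA in this was not tested. Dermal cells had 188 UMIs at 5.80 CPM (5.002 to 6.694) in the mutant library and 423 UMIs at 6.67 CPM (6.05 to 7.34) in the control library (0.869, 0.728 to 1.04), within counting error. Macrophage, mast and other blood, endothelial, glial and melanoblast cells had 0 UMIs in both libraries, and epidermal cells 1 and 2 UMIs.

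The place of Lgr5 within the dermis differed between the libraries. In control cells it was highest in cluster 2, led by Col14a1, Ccn3 and Abi3bp, at 18.5 CPM (15.8 to 21.6), where mutant cells had 2.79 CPM (1.21 to 5.50), a ratio of 0.151 (0.0640 to 0.304). In mutant cells it was highest in cluster 12 at 7.76 CPM, followed by clusters 4 and 7 at 6.64 and 6.27 CPM, whose intervals overlap. Over the Crabp1 ranges, lowest first, Lgr5 stood at 5.68, 5.52, 7.33 and 3.32 CPM in mutant cells and at 10.5, 10.7, 7.03 and 1.19 CPM in control cells. In muscle it was at 8.10 CPM in mutant and 5.20 CPM in control cells (1.56, 1.08 to 2.23). Muscle cluster 6, led by Msc, Isl1 and Kcne1l among others and with Pax7, a progenitor gene, in its leading 10, had 10.3 and 5.96 CPM, and muscle cluster 16, led by the contractile gene Mylpf, had 1.23 and 0.487 CPM.

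Lgr6, the receptor known for marking cells of the upper follicle, lies at chr1:134983301-135105276 on the minus strand. Dermal cells had 64 UMIs at 1.98 CPM (1.52 to 2.52) in the mutant library and 63 UMIs at 0.994 CPM (0.764 to 1.27) in the control library, a ratio of 1.99 (1.38 to 2.86). Over mutant dermal cells with 0, 1, 2 and 3 or more Hedgehog target UMIs, Lgr6 stood at 1.83 (1.17 to 2.72), 1.67 (0.865 to 2.92), 0.937 (0.304 to 2.19) and 3.58 CPM (2.21 to 5.47), with no steady course and from 24, 12, 5 and 21 UMIs. Epidermal cells had 19 UMIs at 1.70 CPM (1.03 to 2.66) in the mutant library and 25 UMIs at 4.33 CPM (2.80 to 6.38) in the control library, a ratio of 0.394 (0.205 to 0.745). Both levels are under 10 CPM, and a UMI was found in 1.201% of mutant and 0.697% of control dermal cells and in 1.37% and 4.16% of epidermal cells, against 1 of 324 mutant and 0 of 341 control macrophages. Lgr6 was therefore higher in the dermis and lower in the epidermis of the mutant library, and the difference between these ratios was not tested.

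The ligases that R-spondins act against were lower in the mutant epidermis alongside Lgr4 and Lgr6. Znrf3, a Wnt target that limits the pathway, had 97 UMIs at 8.70 CPM in mutant and 138 UMIs at 23.9 CPM in control epidermal cells (0.364, 0.278 to 0.476). Rnf43, its close relative, had 110 UMIs at 9.87 CPM and 108 UMIs at 18.7 CPM (0.528, 0.401 to 0.695). In dermal cells Znrf3 was at 5.31 CPM in the mutant library and 5.002 CPM in the control library (1.06, 0.876 to 1.28), and Rnf43 had 4 and 10 UMIs. Control epidermal cells with a Dkk4 UMI after thinning had 33.1 CPM of Znrf3 and 31.0 CPM of Rnf43. Mutant cells with no UMI of Dkk4, Krt1 or Krt10 after thinning had 8.88 and 9.44 CPM, against 24.0 and 17.6 CPM in control cells of that kind. A Dkk4 UMI can be missed after thinning, so control cells of that kind can include Dkk4 cells. Whether the lower levels of Znrf3 and Rnf43 hold outside all Dkk4 cells was not tested.

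**Figure D4:**
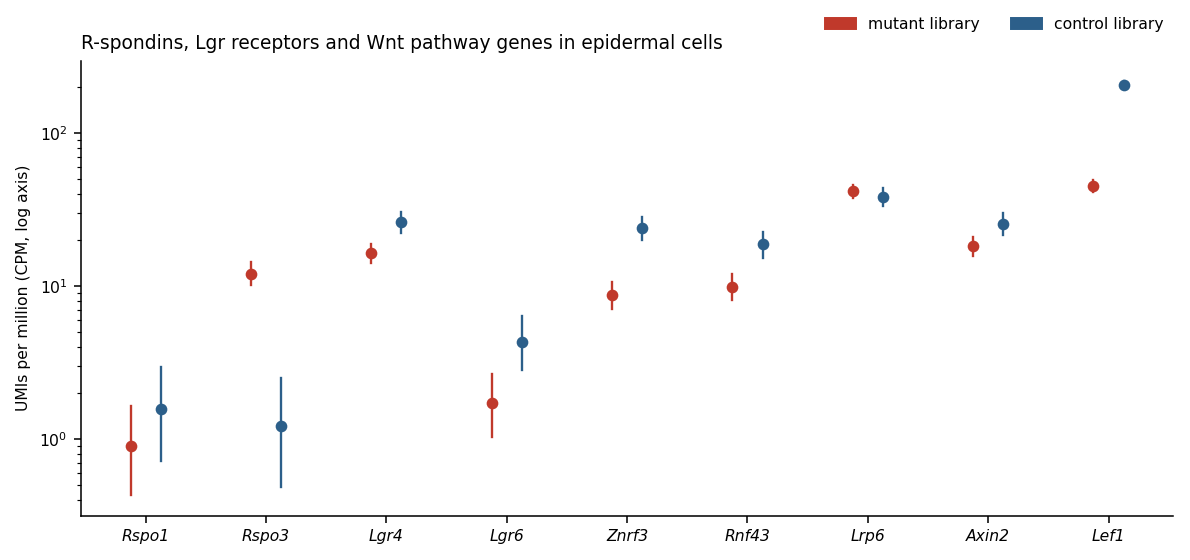
UMIs per 1000000 (y axis, CPM, log axis) of R-spondins, Lgr receptors, the ligases Znrf3 and Rnf43, the co-receptor Lrp6 and the Wnt targets Axin2 and Lef1 (x axis) in epidermal cells of the mutant library in red and the control library in blue, with exact 95% Poisson intervals. Rspo3 lies at 12.02 CPM in mutant and 1.21 CPM in control cells, while Lgr4, Lgr6, Znrf3, Rnf43 and Lef1 lie lower in the mutant library and Lrp6 lies at 41.5 and 38.4 CPM.

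Most other genes at the receptor were within 1.5-fold, except the Frizzled genes in the epidermis, of which 2 of the 5 measured were. Over all features measured, 4.40% were higher and 4.84% lower in the dermis by the same rule, and 4.16% and 2.70% in the epidermis. The co-receptor gene Lrp6 had 50.5 CPM in mutant and 49.9 CPM in control dermal cells (1.01, 0.951 to 1.07) and 41.5 and 38.4 CPM in epidermal cells (1.08, 0.919 to 1.28), and Lrp5 stayed under 10 CPM at 4.20 and 3.55 CPM in the dermis and 5.83 and 5.54 CPM in the epidermis. Of 10 Frizzled genes 6 were measured in the dermis, where Fzd4 was higher in the mutant library (11.2 and 5.52 CPM), Fzd10 lower (6.08 and 10.3 CPM) and 4 within 1.5-fold. In the epidermis 5 were measured, where Fzd1 was higher (14.3 CPM in mutant and 4.67 CPM in control cells), Fzd6 (33.0 and 51.6 CPM) and Fzd10 (54.3 and 120 CPM) lower and 2 within. Among 9 proteoglycans of the cell surface that can bind R-spondins, Sdc2 was lower in the dermis (33.6 and 63.3 CPM) and in the epidermis (18.0 and 32.0 CPM), and the other 7 and 5 that were measured were within 1.5-fold. The 2 measured Dishevelled genes were within it in both classes.

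Wnt targets in the dermis were split. Of 11 measured, 4 were higher in the mutant library, namely the negative regulator Axin2 (77.5 CPM in mutant and 44.2 CPM in control cells), the transcription factor Lef1 (66.5 and 28.8 CPM), the secreted inhibitor Dkk1 (186 and 49.3 CPM) and the cyclin gene Ccnd1 (365 and 180 CPM). Another 4 were lower, namely Sp5 (15.7 and 51.6 CPM), Notum (7.35 and 23.2 CPM), Tcf7 (4.26 and 11.2 CPM) and Apcdd1 (81.6 and 133 CPM), and 3 did not pass 1.5-fold. The median log2 ratio of the 11 was -0.14, beside 0.01 over all features. For this and the lists below, 4.40% of all features measured were higher and 4.84% lower in dermal cells, and 4.16% and 2.70% in epidermal cells. In the epidermis 4 were measured: Ccnd1 was higher (101 and 65.6 CPM), Lef1 (45.2 and 206 CPM) and Apcdd1 (6.01 and 15.1 CPM) were lower, and Axin2 was within 1.5-fold at 18.2 and 25.4 CPM (0.716, 0.576 to 0.891). The median log2 ratio of these 4 was -0.83, beside 0.06 over all features measured in the epidermis. The 3 Hedgehog targets Ptch1, Gli1 and Hhip were higher in mutant dermal cells, and 0 of 3 reached 10 CPM in epidermal cells, where eYFP stood at 0.538 and 0.346 CPM. Of the 10 condensate genes, 7 were measured and 7 were higher in the mutant dermis, and 1, Trps1, was measured in the epidermis at 20.8 CPM in mutant and 9.69 CPM in control cells.

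Among all genes of at least 20 CPM, those whose level over the 20 sums of class and library was most like that of a member were described by Pearson's r of log2(CPM + 1), for the 4 members with at least 200 UMIs. The sums share libraries and cell classes, so r is a description. Rspo1 was most like Tmem26 and Zfp385b (r = 0.93 for both) and Inhba (0.92). Rspo3 was most like Crispld1 (0.91), Thy1 (0.90) and Ptx3 (0.89), and its r with Rspo1 was 0.74. Lgr5 was most like C1qtnf3 (0.93), Edn3 (0.89) and Rtl3 (0.87). Lgr4, which was found in all classes, had no close match, with 0.79 for Surf6, 0.78 for Trnt1 and 0.76 for Ston2.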

How the data were processed

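The deposited matrices hold raw UMI counts per gene and barcode, 1 per library, made by the authors with Cell Ranger 5.0.1 on mm10, per the submitters' processing notes. Per the labels' protocols, skin was digested for 20 minutes in 0.25% trypsin, at 37 °C, cells were stained with DAPI ahead of sorting, and 10x Genomics 3′ libraries were sequenced on the same lane. UMIs count molecule ends and were not scaled by transcript length.

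Barcodes with at least 1000 genes and at most 10% mitochondrial UMIs were kept. Scrublet in scanpy 1.11.5 (expected rate 8%) marked 269 mutant (3.06%) and 593 control barcodes (4.89%) as doublets, which were left out. Each cell was scaled to 10000 UMIs and its values logged, and 2000 variable genes without the members and their partners, 30 principal components and 15 neighbours gave Leiden clusters at resolution 1.0 (leidenalg 0.10.2), without correction between libraries. For naming, 13 marker lists were used, with at least 3 markers at 10 CPM. Per class and library UMIs were summed and scaled to 1000000 (CPM). A gene counted as measured at 10 CPM in either library, and as higher or lower past 1.5-fold. Intervals are exact at 95%: Poisson for CPM, conditional binomial for ratios, Clopper-Pearson for shares. A count of 0 is given with the value that 3 counts would make. List medians add 1 CPM. The ratio code was tested on simulated counts. Other settings tried are given at the end.

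All 7 members are named. Partners are named past 1.5-fold, and Znrf3, Rnf43, Lrp5 and Lrp6 always. Of the genes listed, 1 is not reported here and was left out of its list. The members, lists and rules were chosen with earlier results of these data known. Epidermal Rspo3, the splits by dermal genes and by Cpa3, and the cluster ratios were chosen after their values were seen. Positions and overlapping genes are from GENCODE M21 and whether counting used strand is not given in the sources used here. Among 21 pairs of members, 0 share a run of 50 bases in their transcripts. Promoters of 4 members were found in the RefSeq table. Each library is a pool of embryos, so the spread between animals cannot be seen.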

Additional observations from a re-analysis of the deposited data

Results flagged for a closer look

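The ratio of mutant over control went opposite ways in different cell classes for 3 genes, with intervals on either side of 1, among classes with at least 20 UMIs of the gene in a library. None of these differences between classes was tested. Rspo3 was at 9.92 in epidermal, 2.35 in erythroid and 1.12 in dermal cells, and at 0.324 in endothelial cells. Erythroid barcodes held 4669 CPM of dermal markers in the mutant library and 5047 CPM in the control library. Their Rspo3 to Rspo1 ratios were 4.81 and 0.567, beside 4.08 and 0.553 in dermal cells. The part of dermal RNA in the erythroid value was not tested. Lgr4 was at 1.29 in muscle cells and 0.625 in epidermal cells. Below 20 UMIs, Lgr4 was at 7.40 (2.12 to 39.6) in macrophages, from 16 mutant and 3 control UMIs. Rspo3 was at 4.16 (1.66 to 11.3) in muscle cells, from 15 mutant UMIs in 5 cells and 8 control UMIs in 6 cells. Its interval takes UMIs of the same cell as independent, and the shares of muscle cells with a UMI were close, at 0.692% and 0.604%. Lgr6 was at 1.99 in dermal cells and 0.394 in epidermal cells, from 64 and 63 UMIs and from 19 and 25 UMIs in the mutant and control libraries.

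Barcodes with fewer than 1000 genes, used in no comparison above, also held R-spondin UMIs. The 3087 such mutant barcodes had 1.39 CPM of Rspo1 and 2.67 CPM of Rspo3, beside 514 CPM of dermal markers. The 1413 control barcodes had 21.6 CPM of Rspo1 and 10.7 CPM of Rspo3, beside 2446 CPM of dermal markers.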

How the results depend on the processing

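No paired analysis was possible because each group has 1 library, and for the same reason no replicate could be left out. Of 94 ratios recomputed under other settings, 5 crossed 1, each of them the dermal Lgr4 ratio, which reached 0.934 at the lowest, 73 moved by less than counting error and 21 moved by more. The dermal Rspo1 ratio of 0.152 ran between 0.146 and 0.313. It was 0.19 with 5 CPM added, 0.203 with cells classed by their own markers, 0.18 with the members and partners kept for clustering, 0.196 in cells without G2M UMIs, 0.313 in clusters with 100 cells of each library and 0.309 in cells without Hedgehog target UMIs. The dermal Rspo3 ratio of 1.12 was 1.06 at Leiden resolution 2.0, 1.01 with cells classed by their own markers, 1.04 with members kept for clustering, 1.23 after thinning, 1.26 as a mean of each cell's CPM, 1.44 without G2M UMIs, 1.47 in the shared clusters and 1.42 without Hedgehog target UMIs. The dermal Lgr4 ratio of 1.01 was 1.53 in the shared clusters, pooled and above that of each cluster alone, and 1.24 without Hedgehog target UMIs. In epidermal cells without a UMI of 6 dermal genes the Lgr4 ratio of 0.625 was 0.327, from 15 and 10 UMIs, the Lgr6 ratio of 0.394 was 0.872, from 4 and 1 UMIs, and Rspo3 gave no ratio. The epidermal Rspo3 ratio of 9.92 was 2.74 with 5 CPM added, 2.44 with doublets kept, from 197 and 45 UMIs, and 3.0 with cells classed by their own markers. Lgr6 gave no ratio in cells without G2M UMIs. The count of members past 1.5-fold in dermal cells was 1, and 3 with no filter on low CPM. The cause of these moves was not tested. Some settings also changed which cells made up the dermal class, which held 5162 mutant and 8758 control cells in the main setting. With cells classed by their own markers it held 1158 and 4745. With members and partners kept for clustering it held 4089 and 8750, and at Leiden resolution 2.0 it held 3984 and 8035. The settings on epidermal Rspo3, on the 6 dermal genes and on Hedgehog target UMIs were chosen after seeing the data. Depth limits Rspo2, Rspo4 and Lgr6 most, with at most 64 UMIs of any of them in a sum.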

Other observations

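The share of dermal cells with an Rspo3 UMI was close in cells with and without an Rspo1 UMI. With each cell thinned to 3000 UMIs, 15.02% of the mutant dermal cells that had an Rspo1 UMI and 13.8% of those without one had an Rspo3 UMI, and in the control library these shares were 13.51% and 13.84%. A UMI of Lgr4 was found in 3.29% and 3.59% of mutant dermal cells with and without Rspo1, and in 3.55% and 3.48% of control ones. Of the few cells with an Rspo2 UMI, 5 of 6 mutant and 3 of 21 control cells also had an Rspo3 UMI. Lgr5 was found in 1.25% of control dermal cells with an Rspo1 UMI and in 2.12% of those without, and in 1 of 213 and 1.70% of the mutant ones. These shares describe cells of 1 library each and carry no test.

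In the epidermis, 84 mutant cells had 1 Rspo3 UMI, 18 had 2, 2 had 3 and 2 had 4, and in the control library 3 cells had 1 and 2 had 2.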
